A study of Homo sapiens with 3 samples.

Results

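Keratin genes encode the intermediate filament proteins of epithelial cells. Their members here were all RefSeq protein-coding genes of GRCh38 whose symbol is KRT followed by digits and at most 1 letter, which left out the keratin-associated protein genes. This rule found 55 of 20037 protein-coding genes. Of these, 28 lie on chromosome 17, in the type I cluster, and 27 on chromosome 12, in the type II cluster. KRT18, a type I keratin, lies at the edge of the chromosome 12 cluster beside KRT8.

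The series profiled H1299 cells, an established human line that the labels call lung adenocarcinoma cells, by CUT&RUN. No treatment is labelled, all libraries come from this 1 line, and the line lacks p53. In CUT&RUN an antibody tethers a nuclease to chromatin, and the released DNA fragments are sequenced. There were 3 libraries, 1 each for the transcription factor SP1, for histone H3 acetylated at lysine 27 (H3K27ac, a mark of active enhancers and promoters) and for a negative control with IgG. Lists of called summits and of ranked regions were used for SP1 and H3K27ac, and the IgG library was not analysed here. No library was replicated, so no value has a replicate error and no p-value was computed. All intervals are 95% Wilson intervals over genes, cover counting error only and treat genes as independent, although neighbouring keratin genes often share 1 summit.

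Keratin filaments are built from pairs of 1 type I and 1 type II protein, and the genes of each type stand in tandem clusters. KRT8 and KRT18 form the basic pair of simple epithelia such as that of the lung, with KRT7 and KRT19 beside them. KRT5 and KRT14 are the pair of basal cells in stratified epithelia, and KRT1 and KRT10 that of differentiating epidermis. Other members build hair, nail and the root sheath of the hair follicle. SP1 is a zinc finger factor that binds GC boxes, and it has long been studied at keratin promoters such as that of KRT18.

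Most keratin promoters lacked the letters of the GC box core, and many held a TATA motif. Windows of 300 bases, from 250 before to 50 after a transcription start, came from RefSeq (GRCh38.p14) and matched 34 of the 55 keratin genes, all on the minus strand. The 7 windows below are given 5′ to 3′. They comprise keratin promoters with a TATA motif (KRT10, KRT31), with a GC box core (KRT75, KRT9) or with neither (KRT5), and those of 2 genes outside the clusters whose ends carried an SP1 summit, JUP and EIF4B. Capitals mark each GGGCGG (the GC box core) and TATAAA (the TATA motif) on either strand. No 2 marked motifs overlap in them. KRT10 is at chr17:40822565-40822864 (minus strand), KRT31 at chr17:41397559-41397858 (minus), KRT5 at chr12:52520345-52520644 (minus), KRT75 at chr12:52434322-52434621 (minus) and KRT9 at chr17:41572010-41572309 (minus). JUP is at chr17:41786662-41786961 (minus) and EIF4B at chr12:53006206-53006505 (plus).
KRT10: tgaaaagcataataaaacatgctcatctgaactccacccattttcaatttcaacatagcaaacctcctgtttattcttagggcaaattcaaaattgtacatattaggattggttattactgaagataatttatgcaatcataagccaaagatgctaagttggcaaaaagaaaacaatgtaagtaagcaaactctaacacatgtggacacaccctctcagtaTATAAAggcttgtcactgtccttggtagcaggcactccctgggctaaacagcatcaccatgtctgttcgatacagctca
KRT31: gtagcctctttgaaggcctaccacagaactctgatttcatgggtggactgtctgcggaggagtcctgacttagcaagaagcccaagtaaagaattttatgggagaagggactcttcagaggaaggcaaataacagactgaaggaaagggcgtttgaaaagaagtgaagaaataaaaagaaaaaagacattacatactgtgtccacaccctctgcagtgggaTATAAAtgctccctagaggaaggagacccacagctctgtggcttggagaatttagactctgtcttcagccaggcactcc
KRT5: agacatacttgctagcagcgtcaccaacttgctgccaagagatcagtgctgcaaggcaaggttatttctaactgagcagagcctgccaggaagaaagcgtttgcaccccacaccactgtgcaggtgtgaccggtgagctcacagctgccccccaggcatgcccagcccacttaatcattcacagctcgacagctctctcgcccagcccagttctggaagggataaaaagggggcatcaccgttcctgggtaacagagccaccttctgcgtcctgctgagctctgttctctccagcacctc
KRT75: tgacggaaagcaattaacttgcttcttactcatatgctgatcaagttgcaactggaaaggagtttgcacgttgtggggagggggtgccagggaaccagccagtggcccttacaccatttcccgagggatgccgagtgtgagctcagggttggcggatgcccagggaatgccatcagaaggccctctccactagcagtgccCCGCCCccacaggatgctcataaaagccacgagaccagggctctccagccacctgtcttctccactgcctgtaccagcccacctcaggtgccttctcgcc
KRT9: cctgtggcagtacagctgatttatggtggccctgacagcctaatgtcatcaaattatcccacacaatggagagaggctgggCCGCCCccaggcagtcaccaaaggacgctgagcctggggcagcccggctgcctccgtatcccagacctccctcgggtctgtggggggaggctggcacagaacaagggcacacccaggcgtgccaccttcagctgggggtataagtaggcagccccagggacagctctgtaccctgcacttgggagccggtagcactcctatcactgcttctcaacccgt
JUP: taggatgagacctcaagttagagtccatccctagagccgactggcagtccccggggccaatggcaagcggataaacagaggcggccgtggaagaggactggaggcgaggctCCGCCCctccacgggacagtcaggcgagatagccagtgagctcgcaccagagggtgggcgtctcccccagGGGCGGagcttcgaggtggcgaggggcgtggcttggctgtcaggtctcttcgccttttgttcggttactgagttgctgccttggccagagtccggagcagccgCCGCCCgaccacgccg
EIF4B: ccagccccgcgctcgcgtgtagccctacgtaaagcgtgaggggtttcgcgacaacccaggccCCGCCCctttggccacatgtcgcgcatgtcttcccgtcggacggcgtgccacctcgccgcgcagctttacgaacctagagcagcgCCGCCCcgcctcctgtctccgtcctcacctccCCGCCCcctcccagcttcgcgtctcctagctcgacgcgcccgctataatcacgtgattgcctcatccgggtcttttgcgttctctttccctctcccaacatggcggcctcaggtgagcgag
In KRT10, the type I keratin of suprabasal epidermis, and in KRT31, a hair cortex keratin, the TATA motif began 29 bases before the start. KRT75, a keratin of the follicle's companion layer, held 1 GC box core, 50 bases before the start. KRT9, the keratin of palm and sole skin, held 1 at 169 bases before it. JUP had 3 GC box cores, beginning 139 and 69 bases before the start and 35 bases into the transcript. EIF4B had 3, all before the start, at 188, 103 and 71 bases.

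Over all 34 keratin windows, 6 held GGGCGG, or 17.6% (8.35 to 33.5), against 58.3% of 15842 protein-coding promoters (57.6 to 59.1). The 6 were KRT9, KRT75 and the hair keratins KRT32, KRT37, KRT38 and KRT85, each with 1 copy. TATAAA stood in 20 keratin windows, or 58.8% (42.2 to 73.6), against 9.75% of all (9.29 to 10.2). By class it was in 10 of 14 hair and nail keratins, 6 of 8 root sheath keratins, 4 of 10 keratins of stratified epithelium and 0 of 2 of simple epithelium, KRT8 and KRT20. The third motif searched, TGANTCA of AP-1, was in 0 of 34 keratin windows (up to 10.2%), against 5.70% of all. A match to these letters is a description and not a measured binding site, and the start listed for KRT8 lies 23391 bases inside its gene span.

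The keratin windows were also poorer in G and C. Their median GC content was 45.8%, with the lowest value, 30.0%, in KRT28 and the highest, 67.3%, in KRT79, against a median of 62.7% over all protein-coding promoters. They held a median of 2 CpG dinucleotides, against 22. At genes with an SP1 summit at an end the medians were 65.0% GC and 26 CpG, and 78.4% of 2292 windows held GGGCGG.

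**Figure D1:**
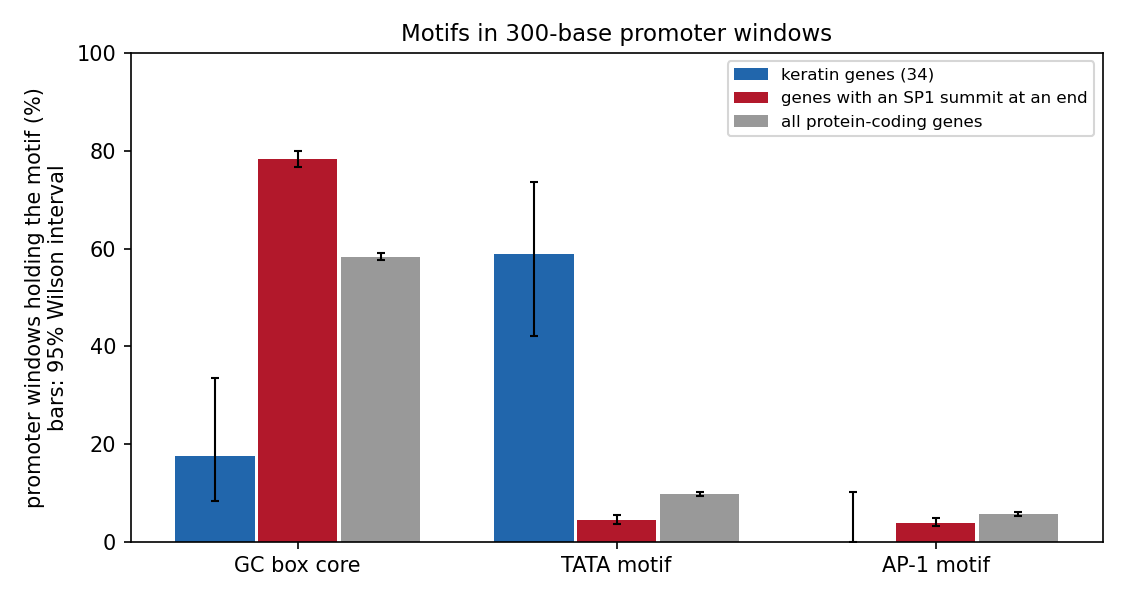
Share of 300-base promoter windows holding each motif on either strand (y axis, %), for 34 keratin genes, 2292 genes with an SP1 summit at an end and all 15842 protein-coding genes with a listed start. Bars give shares and lines 95% Wilson intervals. Keratin windows hold the GC box core in 17.6% and the TATA motif in 58.8%, against 58.3% and 9.75% of all windows.

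SP1 was called at the end of 1 keratin gene, KRT23. An SP1 summit at chromosome 17 position 40937919 lay 273 bases beyond the high-coordinate end of KRT23, a type I keratin grouped here with those of simple epithelium. Its score was 4.34. Scores in the deposited lists are −log10 values from the peak caller, of either p or q, which the files leave unsaid. The KRT23 summit ranked 4650 of 5570 by score, with 14.7% of the list below it, and was in no ranked SP1 region. The summit also lies within the lncRNA gene LOC107985072.

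An end here is either boundary of the gene span, and a summit within 1000 bases of it was counted. The share of keratin genes was thus 1 of 55, or 1.82% (0.322 to 9.61), against 13.7% of all protein-coding genes. No H3K27ac summit lay at an end of any of the 55 (up to 6.53%), against 0.848% of all genes. At that background a count of 0 among 55 says little. The next keratin gene outside the limit was KRT72 for SP1, at 6065 bases, and KRT81 for H3K27ac, at 5052 bases.

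SP1 calls were also counted by the number of GC box cores in the window. Of 28 keratin genes whose window held no GGGCGG, 0 carried SP1 at an end, against 7.5% of the 6600 such genes in all. Of the 6 with 1 copy, 0 had one, against 16.7% of 3438. At these shares, counts of 0 among 28 and among 6 genes say little. Over all genes the share was 20.2% with 2 or 3 copies and 22.8% with 4 or more, and no keratin window held that many. KRT23 is not among the 34 matched genes.

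Summits inside keratin genes were as few. KRT72, which encodes a type II keratin of the inner root sheath, contained an SP1 summit at chromosome 12 position 52596888, with a score of 5.53. This was 1 of 55 genes, or 1.82%, against 12.7% of all genes. It formed an SP1 region of 225 bases ranked 933 of 2356. The H3K27ac list had 1 summit inside a keratin gene, KRT86, against 5.66% of all genes with one. With no other summit in any keratin span, a start site inside a span, such as that listed for KRT8, had no summit at it either.

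Within 50 kb of the gene span, 9 keratin genes had an SP1 summit, or 16.4% (8.86 to 28.3), against 41.1% of all protein-coding genes. Only 3 summits gave these 9. The KRT72 summit served the root sheath genes KRT71, KRT72, KRT73 and KRT74 and the epidermal KRT2. The KRT23 summit served KRT23 and the hair keratins KRT39 and KRT40. The third, at chromosome 17 position 41666390, lay 41.8 kb from KRT17, a keratin of basal-like and injured epithelium. Its score was 3.52, higher than that of only 2.44% of the list, and its region ranked 1982 of 2356. All 3 scores were below the SP1 list's median of 6.17.

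Just outside the 50 kb limit were KRT20, KRT16, KRT18 and KRT8, at 52.7, 53.6, 53.7 and 56.7 kb from an SP1 summit. For the KRT8 and KRT18 pair that summit was at chromosome 12 position 53006608, 152 bases inside an end of EIF4B, a translation initiation factor gene, with a score of 7.30. It exceeded every SP1 score within the clusters. Of the other keratins grouped with simple epithelium, KRT23 had the summit given above. KRT19 at 138 kb, KRT80 at 143 kb and KRT7 at 208 kb were farther away. Of the basal pair, KRT5 was 76.5 kb and KRT14 79.5 kb from the nearest SP1 summit.

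H3K27ac was called in the type II cluster at its low-coordinate side alone. Beside KRT80, a type II keratin grouped here with those of simple epithelium, 3 H3K27ac summits lay at chromosome 12 positions 52146314, 52147010 and 52148013, scoring 5.87, 5.84 and 7.57. A single region of 1955 bases, at 52146209 to 52148163, joins them and ranked 26 of 2710, in the top 0.959% of all H3K27ac regions. It was the fifth best of 206 regions on that chromosome. Of the 2710 regions, 2612 consist of 1 peak, and the median length is 234 bases. The region is intergenic, 20.8 kb from KRT80 and, on the other side, 38.0 kb from SMIM41, with the lncRNA gene SMIM41-AS1 28.0 kb away. Of 20037 protein-coding genes, 16 (0.0799%) lay within 50 kb of a region ranked this high or higher.

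The other H3K27ac region was inside KRT86, a hair cortex keratin gene, at 52280689 to 52281383. It held 1 summit, at 52280861, with a score of 6.62, and ranked 107 of 2710. By coordinate, the span of the lncRNA gene KRT86-AS2 lay 1.53 kb below it, and that of the hair keratin gene KRT81 lay 4.53 kb above it. The span of KRT7, a simple-epithelium keratin of lung and ducts, lay 24.8 kb below the region. KRT83, another hair keratin, was 33.4 kb from the summit. Gene spans do not show whether these positions are in an intron or an exon. Each of the 4 summits scored above 72.4% to 93.7% of the H3K27ac list.

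These 2 regions gave H3K27ac within 50 kb to 5 keratin genes (KRT80, KRT7, KRT86, KRT81 and KRT83), or 9.09% of 55 (3.95 to 19.6), against 15.7% of all protein-coding genes. The same 5 had a region within 50 kb, against 12.5% of all. The share of keratins is not above the background. SP1 was not called near either place, since the closest SP1 summit was 121 kb from the region beside KRT80 and 255 kb from that in KRT86. No keratin gene had summits of both libraries within 50 kb. The share of all genes with both was not computed, so that count says nothing particular about keratins. Beyond KRT83, the next gene was KRT85 at 79.1 kb, and KRT18 and KRT8 were 137 and 140 kb from an H3K27ac summit.

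**Figure D2:**
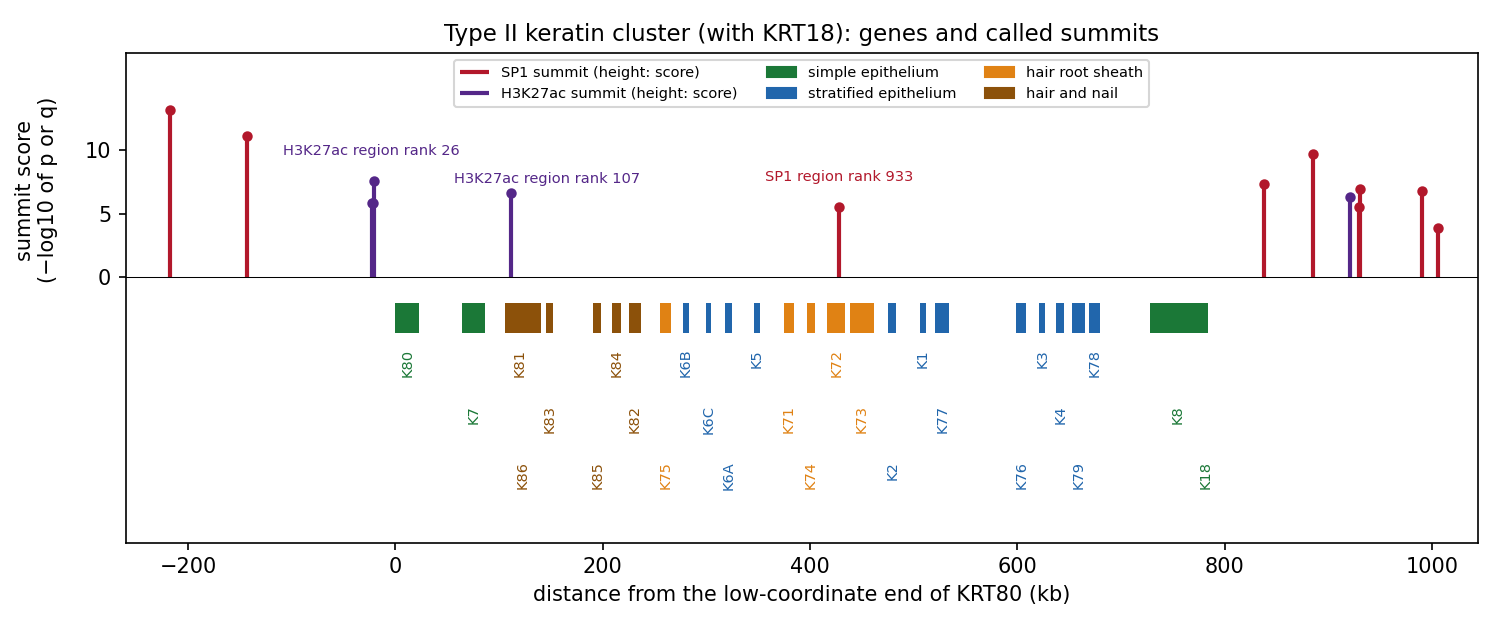
Keratin genes of chromosome 12 (boxes, coloured by class, names with K for KRT) and summits called within 250 kb (stems, height on the y axis is the score, −log10 of a p or q), by distance from the low-coordinate end of KRT80 (x axis, kb). Within 50 kb of the genes, H3K27ac stems stand beside KRT80 (region rank 26) and in KRT86 (region rank 107), and 1 SP1 stem stands in KRT72.

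The type I cluster had no H3K27ac call. Such calls were few in general, since the list held 3201 summits and 0.848% of all protein-coding genes had one at an end. Within 50 kb, 0 of the cluster's 28 keratin genes had one, against 14.1% of other protein-coding genes of chromosome 17 and 15.7% of all. A stretch of 4439 kb on chromosome 17, between summits at 38580519 and 43019815, contained none, and all 28 keratin genes of that chromosome lay in it. It was the third longest of 122 stretches between neighbouring H3K27ac summits there, whose median was 271 kb. It was picked for the genes it contains, and such stretches tend to be long, so its length alone does not set it apart. The nearest H3K27ac summit was 1400 kb from KRT17, 1430 kb from KRT14 and 1490 kb from KRT19. The stretch also held 142 other protein-coding genes and 13 SP1 summits. SP1 lay at an end of 9 of these genes (6.34%), against 18.8% of all non-keratin genes of chromosome 17 and 13.7% of all genes. The 142 include the 34 keratin-associated protein genes between the cluster's ends, of which 0 had one, which lowers that share.

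**Figure D3:**
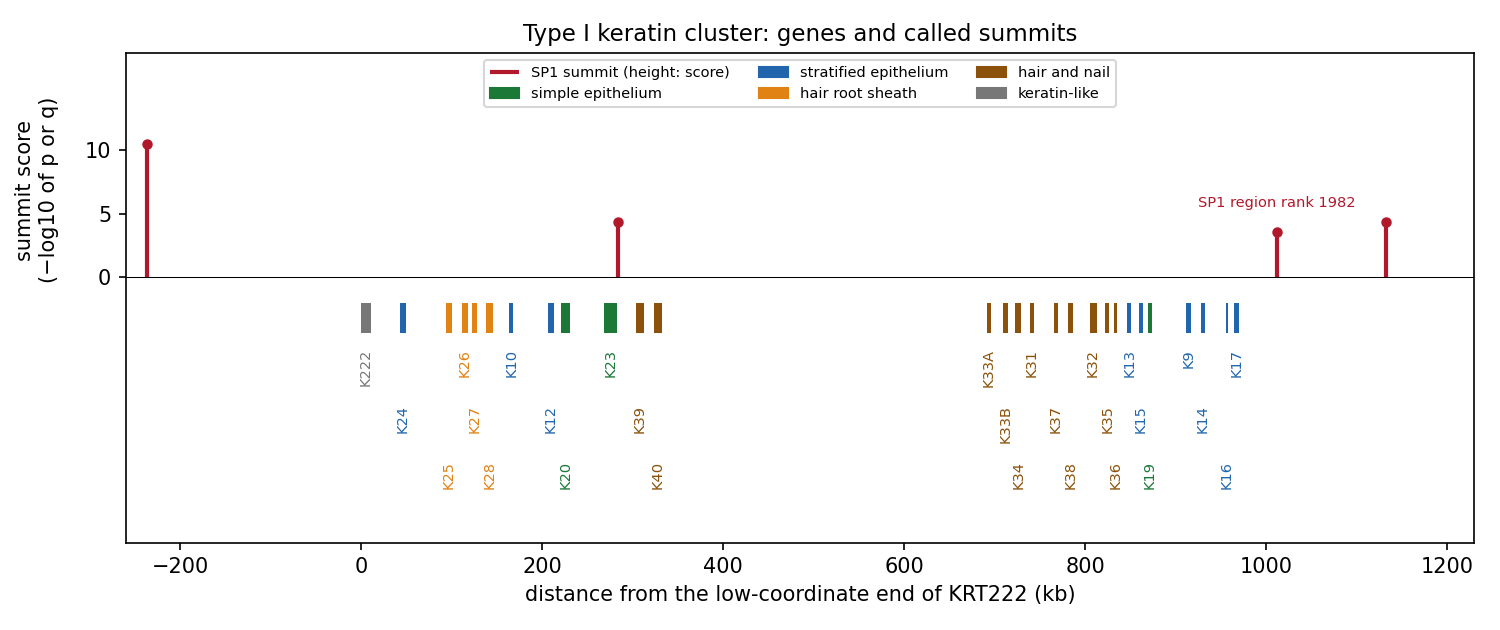
Keratin genes of chromosome 17 (boxes, coloured by class, names with K for KRT) and SP1 summits within 250 kb (stems, height on the y axis is the score, −log10 of a p or q), by distance from the low-coordinate end of KRT222 (x axis, kb). SP1 stems stand at KRT23 and 41.8 kb beyond KRT17, and no H3K27ac summit falls in the plotted range.

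Summits were also counted by length. Windows of 50 kb around the genes of the type II cluster covered 0.884 Mb and held 1 SP1 summit, or 1.13 per Mb. Such windows around all protein-coding genes of chromosome 12 held 3.34 per Mb. The type I windows, with 0.811 Mb, held 2 SP1 summits, or 2.47 per Mb, against 4.76 on chromosome 17. Around all protein-coding genes of the genome the SP1 rate was 2.54 per Mb, close to the type I value. Rates that rest on 1 or 2 summits say little. H3K27ac stood at 4.53 per Mb in the type II windows, against 2.02 on chromosome 12, but 3 of those 4 summits belong to the 1 region beside KRT80. In the type I windows it was 0, against 1.21 per Mb on chromosome 17, and at that rate a count of 0 over 0.811 Mb says little. The value around all protein-coding genes was 1.12 per Mb.

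The stretches between SP1 summits that hold keratin genes were longer than the median stretch of their chromosomes. A stretch picked for the genes it contains tends to be long, so length alone does not set these apart. On chromosome 12, stretches of 571 and 410 kb flank the KRT72 summit and wholly contain 15 and 11 keratin genes. They ranked 67 and 96 among 353, with a median of 170.0 kb. On chromosome 17, stretches of 520 and 728 kb flank the KRT23 summit, with 10 and 18 keratin genes, and ranked 44 and 30 among 341, with a median of 88.3 kb.

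By gene, the median distance from an end to the nearest SP1 summit was 155 kb for the 55 keratins (quartiles 73.6 and 203), against 88.7 kb for all protein-coding genes (14.4 and 320). The highest was 316 kb, for KRT33A, a hair keratin. By class the medians were 56.7 kb in simple epithelium (7 genes), 115 kb in stratified epithelium (21 genes), 138 kb in the root sheath (9 genes) and 229 kb in hair and nail (17 genes). The classes overlapped, since the simple-epithelium genes ranged from 0.273 kb (KRT23) to 208 kb (KRT7) and the hair and nail genes from 20.5 kb (KRT39) to 316 kb. For H3K27ac the distances split by cluster. The 27 genes on chromosome 12 lay 5.05 to 394 kb from a summit. The 28 on chromosome 17 lay 1400 to 2210 kb away. Over all protein-coding genes the median was 320 kb (quartiles 110 and 833). The keratin distances to SP1 rest on 3 summits on chromosome 12 and 3 on chromosome 17. Those to H3K27ac rest on 3 and 2, so for both libraries neighbouring genes are not independent values.

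**Figure D4:**
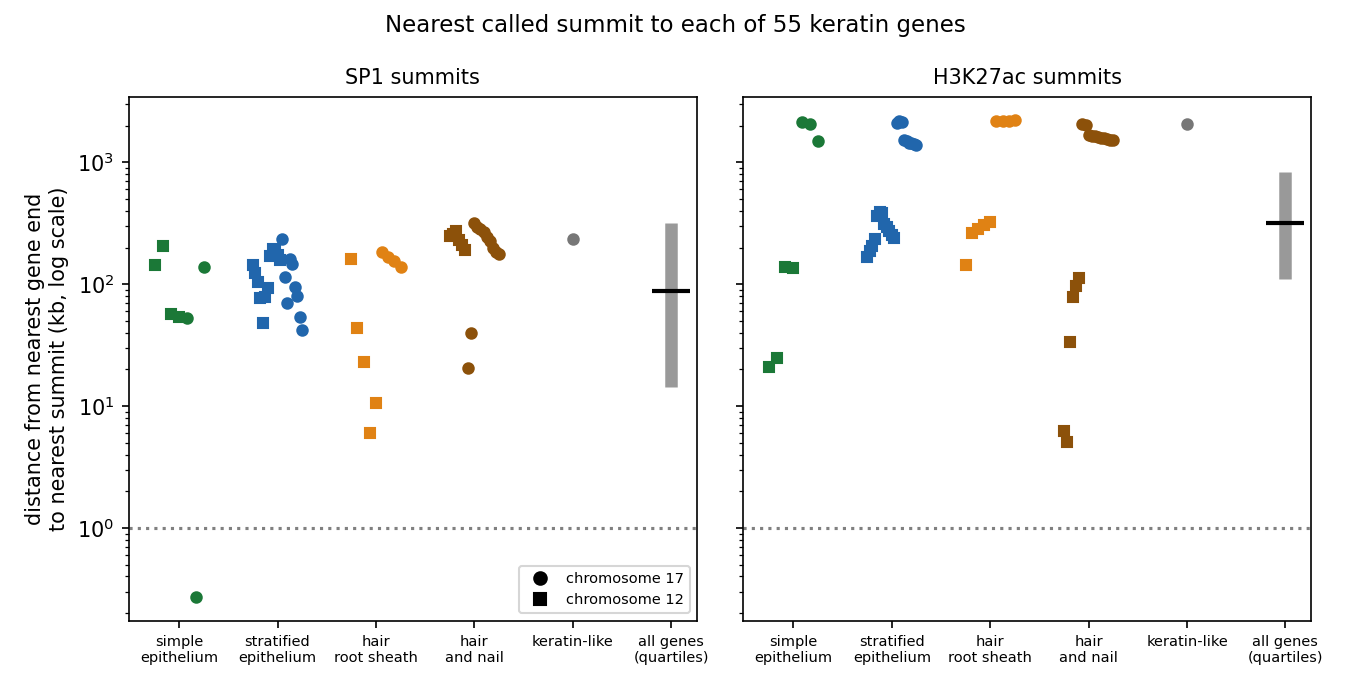
Distance from the nearer gene end to the nearest summit (y axis, kb, log scale) for each keratin gene by class, with circles for chromosome 17 and squares for chromosome 12. The last column gives the median (line) and quartiles (bar) of all protein-coding genes, and the dotted line marks 1 kb. KRT23 is the 1 gene below that line, and the circles for H3K27ac all lie at 1400 kb or more.

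Genes between and around the keratin genes were counted in the same way. No SP1 summit lay at an end of the 34 other protein-coding genes between the outermost genes of the type I cluster (up to 10.2%), all of which encode keratin-associated proteins. Of all 94 keratin-associated protein genes, which encode the matrix proteins of hair, 0 had SP1 or H3K27ac called at an end or within 50 kb (up to 3.93%), against 13.7% and 41.1% of all genes for SP1 and 0.848% and 15.7% for H3K27ac. Outside the type I cluster, 7 of 65 genes within 1 Mb had an SP1 summit at an end, or 10.8% (5.32 to 20.6), which overlaps the interval of the cluster's own 28 keratin genes (0.633 to 17.7). Outside the type II cluster the count was 12 of 46, or 26.1% (15.6 to 40.3), against 0 of the 27 keratin genes there (up to 12.5%). The share of all genes was 13.7%, and no difference between flanks and clusters was tested. The 1 Mb limit was chosen after seeing the data.

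Some of the flanking genes with an SP1 summit at an end, picked after their values were seen, serve as examples. Beyond the type II cluster, SP1 itself, 452 bases from an end, had a score of 25.7, and AAAS, a nuclear pore gene, 18.5. ACVR1B, an activin receptor gene on the other side, had 13.1. Beyond the type I cluster TOP2A, which encodes a DNA topoisomerase, had 10.4, and JUP had 4.34. Over all summits at ends of flanking genes, scores ran from 3.86 (RETREG3 and TUBG1) to 34.6 (PRR13). Some genes had more than 1, since RETREG3 and TUBG1 also had a summit of 6.45 and SP1 another of 4.73. The summit at KRT23 scored above only 14.7% of the SP1 list, so higher scores at flanking genes say little. No gene of these flanks had an H3K27ac summit at an end, against 0.848% of all genes. Within 50 kb, H3K27ac was called for 0 of the 65 genes flanking the type I cluster and 7 of the 46 flanking the type II cluster (15.2%), against 15.7% of all.

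Genes that work with keratins were examined as lists. Of 20 genes of desmosomes and keratin linkers, which tie filaments to the cell border, 1 had an SP1 summit at an end, 5.0% (0.888 to 23.6). It was JUP, which encodes plakoglobin, at 90 bases. Of 20 genes of the cornified envelope and keratin bundling, 1 had one, CNFN with a score of 11.7. Of 20 transcription factor genes linked to keratin expression, 2 had one. They were SP1, as given above, and CEBPB, with 4.95. Of 16 genes for other intermediate filaments, 2 had one, the nuclear lamin genes LMNB1 (8.71) and LMNB2 (8.67), while VIM, the vimentin gene of mesenchymal cells, had none. All 4 shares have intervals that include the background of 13.7%, and H3K27ac was called at the ends of none of their members, against 0.848% of all genes.

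The cell type label could be examined only through called summits, which do not measure expression. At gene ends, SP1 summits were found for 0 of 8 epithelial identity genes, 1 of 5 alveolar genes (NAPSA, 6.69) and 1 of 8 mesenchymal genes (SNAI1, 9.88), against 13.7% of all genes. Within 50 kb, SP1 summits were found for 4 of 8 epithelial, 2 of 5 alveolar and 1 of 8 mesenchymal genes, against 41.1% of all. H3K27ac was called at the ends of none of these genes, against 0.848% of all, so that count is near the background. Lists this short do not speak for or against the label. KRT8 and KRT18 are in the epithelial list, so it is not independent of the keratin counts above. Weak signal that the peak caller passed over is not visible in these lists, and the depth of the libraries is unknown.

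**Figure D5:**
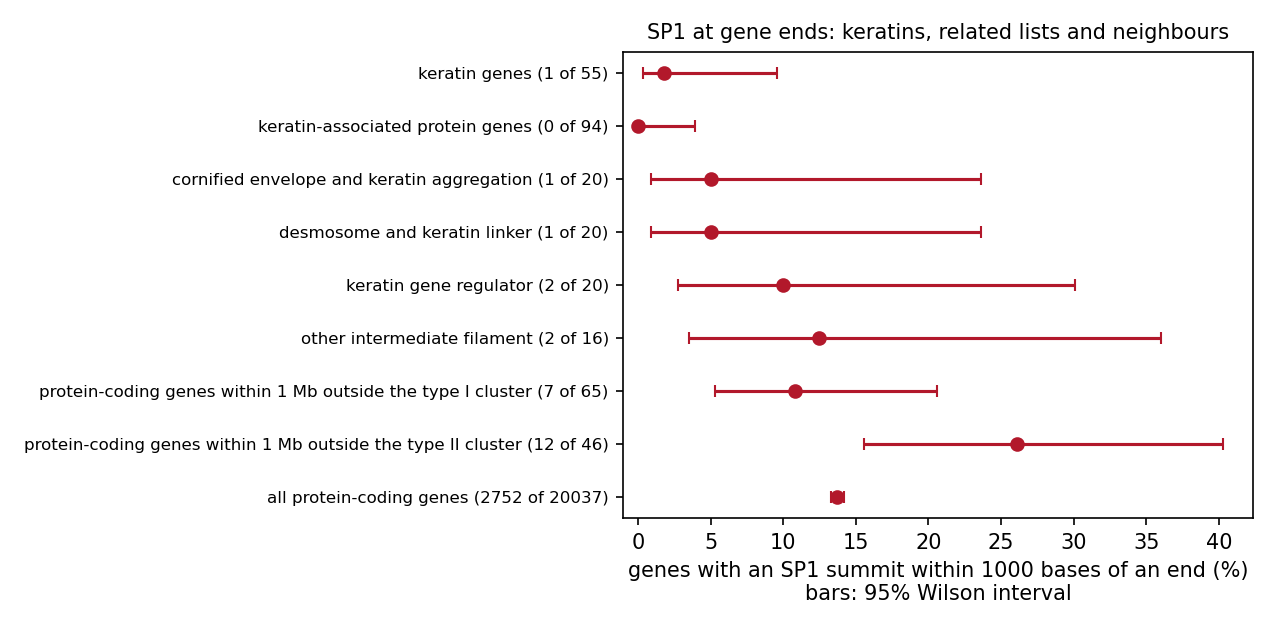
Share of genes with an SP1 summit within 1000 bases of an end (x axis, %) for keratin genes, related lists, flanking genes and all protein-coding genes, with 95% Wilson intervals. The keratin share, 1.82%, and the keratin-associated protein share, 0%, have intervals that end below the 13.7% of all genes.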

How the data were processed

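Per the submitters' processing notes, the build was hg38 and the tools included deepTools 3.4.1 and cutadapt 2.5, whose roles are not stated. What aligned the reads, what called the peaks, and with which settings and control, is not given in the sources used here. As deposited by the authors, each library has a list of summits with a −log10 p-value or q-value each, and a list of regions whose score column holds the rank. The files hold no read counts, so depth and the precision it gives are unknown.

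Distances from summits and regions to gene spans of a RefSeq table (GRCh38.p14, 20037 protein-coding genes on 24 chromosomes) were computed with Python 3.11.15 and pandas 2.3.3, and Wilson intervals with SciPy 1.17.1. The distance search was tested on simulated data. Coordinates are 1-based. Where a gene had several listed starts, the one nearest its span's end was used for the promoter window. Summits were counted within 1000 bases of an end or 50 kb of a span, with 1 base of overlap for regions. Score thresholds, other distances and listed starts alone were tried as alternatives. Members, classes and lists were chosen with earlier results of these data known. The genes named are those with a summit at an end, inside or within 50 kb, KRT5, KRT7, KRT8, KRT14, KRT17, KRT18, KRT19 and KRT80, genes at the limits of a count or range, and list members with a summit. The flanking genes and those with printed or tallied promoter windows were chosen after their values were seen. The listed starts lack KRT1, KRT6A, KRT6B, KRT6C, KRT7, KRT13, KRT14, KRT15, KRT16, KRT17, KRT18, KRT19, KRT23, KRT72, KRT77, KRT78, KRT80, KRT81, KRT83, KRT86 and KRT222.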

Additional observations from a re-analysis of the deposited data

How the results depend on the processing

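No paired analysis was possible because each antibody had a single library. Of 44 alternative values for 10 counts, 29 stayed within 1.5 times the reported count and 15 moved. KRT23 remained the 1 gene with an SP1 summit at an end at 500, 2500 and 5000 bases, against 11.4%, 15.8% and 18.2% of all genes. The count was 0 with summits above the median score and above the upper quartile, against 10.4% and 6.21% of all genes. It was also 0 with listed starts only, which lack KRT23. The 3 SP1 summits within 50 kb all score below the median, so both score settings left 0 keratin genes and 0 summits in either cluster. The shares of all genes within 50 kb at these score settings were not computed. SP1 lay within 25 kb of 5 of 55 keratin genes and within 100 kb of 19, against 32.4% and 52.6% of all genes. At 25 kb the type I cluster kept 1 SP1 summit, and at 100 kb the type II cluster had 2. H3K27ac lay within 25 kb of 3 keratin genes, against 10.9% of all genes, and above the upper quartile 2 of its 4 summits in the type II cluster were left. Counts of H3K27ac at keratin ends and in the type I cluster were 0 under every alternative run, and its 2 regions in the type II cluster were kept under all 4. At an end, 0.23% to 2.48% of all genes had an H3K27ac summit under the distance and score settings. Fewer summits and narrower or wider windows change counts by construction.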

Other observations

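KRT8 and KRT18 have many processed pseudogenes, copies of their transcripts scattered over the genome. The RefSeq table lists 152 keratin pseudogenes, 52 of them of KRT8 and 68 of KRT18. No SP1 summit lay at an end of any of the 152 (up to 2.46%), against 0.68% of 17051 pseudogenes of all kinds. H3K27ac summits lay at an end of 2, or 1.32% (0.362 to 4.67), against 0.399% of all pseudogenes. They were KRT18P15 on chromosome 3, with a score of 3.97 at position 32258732, and KRT16P6 on chromosome 17, with 6.63 at position 16817050. The nearest ends of protein-coding genes were 20540 bases away (CMTM8) and 39169 bases away (CCDC144A). Copies this alike share reads, so summits at them are uncertain.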
